A study of Mus musculus with 10 samples.

Results

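Collagen-rich stromal spots are the places in a tumour section where the messages of fibrillar collagen were most abundant. They were examined in 4 mouse liver tumours, NEJ146, NEJ634, NEJ723 and NEJ687. In each section the UMIs (counted RNA molecules) of Col1a1, Col1a2 and Col3a1, the chains of type I and type III collagen, were summed and divided by all UMIs of the spot. The highest 10% of the spots of a section by this score were called collagen-rich and the lowest 50% collagen-poor. This gave 2605 collagen-rich and 13014 collagen-poor spots among 26022 spots used in the 4 tumours, with 10403 spots in between, out of 49916 spots in all 10 sections of the series and 34133 that passed the same minimum of UMIs. The score chose the spots, so the levels of these 3 genes are a description, with no test. Each of the other genes was compared between the sides, although all of them were read in the same spots as the score.

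RNA was captured from frozen 10 µm sections on Visium slides, an array of barcoded spots in which each spot captures RNA from a small patch of tissue that can hold several cells of different types. A collagen-rich spot is therefore a region and not a cell, and a higher level there cannot be separated into more cells of a type and more RNA per cell. The tumours arose in ABC-Myc mice (Alb-Cre;CAG-Myc), a C57BL/6J line. In it Cre recombinase under the albumin enhancer and promoter removes a STOP cassette in front of a human MYC gene driven by the CAG promoter. By this design MYC is switched on in hepatocytes, and whether stromal cells carried it was not tested. Ages were not given. By the study's methods, ABC-Myc mice for the spatial work were perfused with a buffer holding EDTA and then with collagenase before the tumour was taken. What this did to the matrix or the RNA of the sections was not tested. NEJ146 is represented by 4 adjacent sections (A to D), as its labels say, and the other 3 tumours by 1 section each, so the tumour (n = 4) was the unit and the NEJ146 sections were averaged. The remaining tissues, NEJ638, NEJ654 and NEJ677, carry the same GEO tissue tag, hepatoblastoma, although the study describes 4 tumours and 3 healthy livers. A list of 11 hepatoblastoma and fetal liver genes, Afp, Igf2 and H19 among them, summed to 42.5 to 131 UMIs per 10000 in collagen-rich spots of the 4 tumours and to 0.276 to 1.64 in those of the other 3 tissues. The NEJ146 sections came with no call of which spots lie over tissue, and a minimum of 8000 UMIs stood in for it; elsewhere a spot had to be called tissue and hold at least 2000 UMIs. NEJ146 is also labelled as total RNA and the other tumours as polyA RNA, which cannot be told apart from the tumour.

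Fibrillar collagens form the fibres that give a tissue its tensile strength. In the liver they are made by hepatic stellate cells, the pericytes of the sinusoid, by portal fibroblasts around the bile ducts and vessels, and by the contractile myofibroblasts that both can become after injury. TGF-beta is the best known inducer of the programme: it is secreted in a latent form, stored on latent TGF-beta binding proteins in the matrix, and signals through its receptors and SMAD proteins to matrix and cytoskeletal genes.

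The score that made a spot collagen-rich differed between tumours. The number of such spots follows the size of a section by the rule: NEJ634 contributed 189 collagen-rich spots, NEJ723 218, NEJ687 397 and the NEJ146 sections 446, 449, 488 and 418. The lowest score on the collagen-rich side was 26.9 UMIs per 10000 in NEJ634, against 26.8 in the spot just below it, and 6.37 against 6.36 in NEJ723, 4.64 against 4.62 in NEJ687, and 6.57 against 6.57, 8.70 against 8.66, 7.09 against 7.09 and 5.63 against 5.62 in sections A to D of NEJ146. Collagen-rich therefore denotes a higher amount in NEJ634, where the highest collagen-poor score was 9.77, than in the other tumours. Summed over all collagen-rich spots, the score was 45.7 UMIs per 10000 in NEJ634, 10.5 in NEJ723, 8.06 in NEJ687 and 11 to 15.1 in the NEJ146 sections. The collagen-poor sums were 5.99, 1.51 and 0.84 in NEJ634, NEJ723 and NEJ687 and 0.71 to 1.12 in NEJ146. In NEJ687 30.0% of the collagen-poor spots held none of the 3 messages, while each one in NEJ634 held some.

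All 3 rule genes contributed in every tumour. In collagen-rich spots Col1a1 stood at 301, 1288, 313 and 175 CPM (UMIs of the gene scaled to a common library total) in NEJ146, NEJ634, NEJ723 and NEJ687, the order used for all values by tumour from here on, with NEJ146 as the mean of its 4 sections. Col1a2 stood at 373, 1459, 349 and 181 CPM, and Col3a1 at 612, 1819, 384 and 450 CPM. Col1a1 made up 23.3%, 28.2%, 29.9% and 21.7% of the UMIs of the 3 genes in collagen-rich spots of the tumours, and 17.6%, 13.3% and 11.1% in the spots chosen by the same rule in NEJ638, NEJ654 and NEJ677, a description of 7 tissues with no test.

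A spot on the array has up to 6 adjacent spots. Of the used neighbours of a collagen-rich spot, 36.5% were themselves collagen-rich in NEJ634, 23.5% in NEJ723, 21.1% in NEJ687, and 37.3%, 57%, 42.0% and 42.5% in sections A to D of NEJ146. The neighbours of collagen-poor spots were collagen-rich in 2.0% to 7.21% of cases. The largest connected patch was 232 spots in section B of NEJ146, 51.7% of its collagen-rich spots, and 54, 86 and 99 spots in its sections A, C and D. In NEJ634, NEJ723 and NEJ687 the largest patches held 35, 26 and 19 spots. As a share of the collagen-rich spots these were 18.5%, 11.9% and 4.79%, beside 12.1%, 51.7%, 17.6% and 23.7% in sections A to D of NEJ146. Single spots were common in every section, with 139 of the 207 patches of NEJ687, 72 of 108 in NEJ723, 33 of 58 in NEJ634 and 89 of 140, 55 of 87, 83 of 141 and 69 of 118 in sections A to D of NEJ146.

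**Figure D1:**
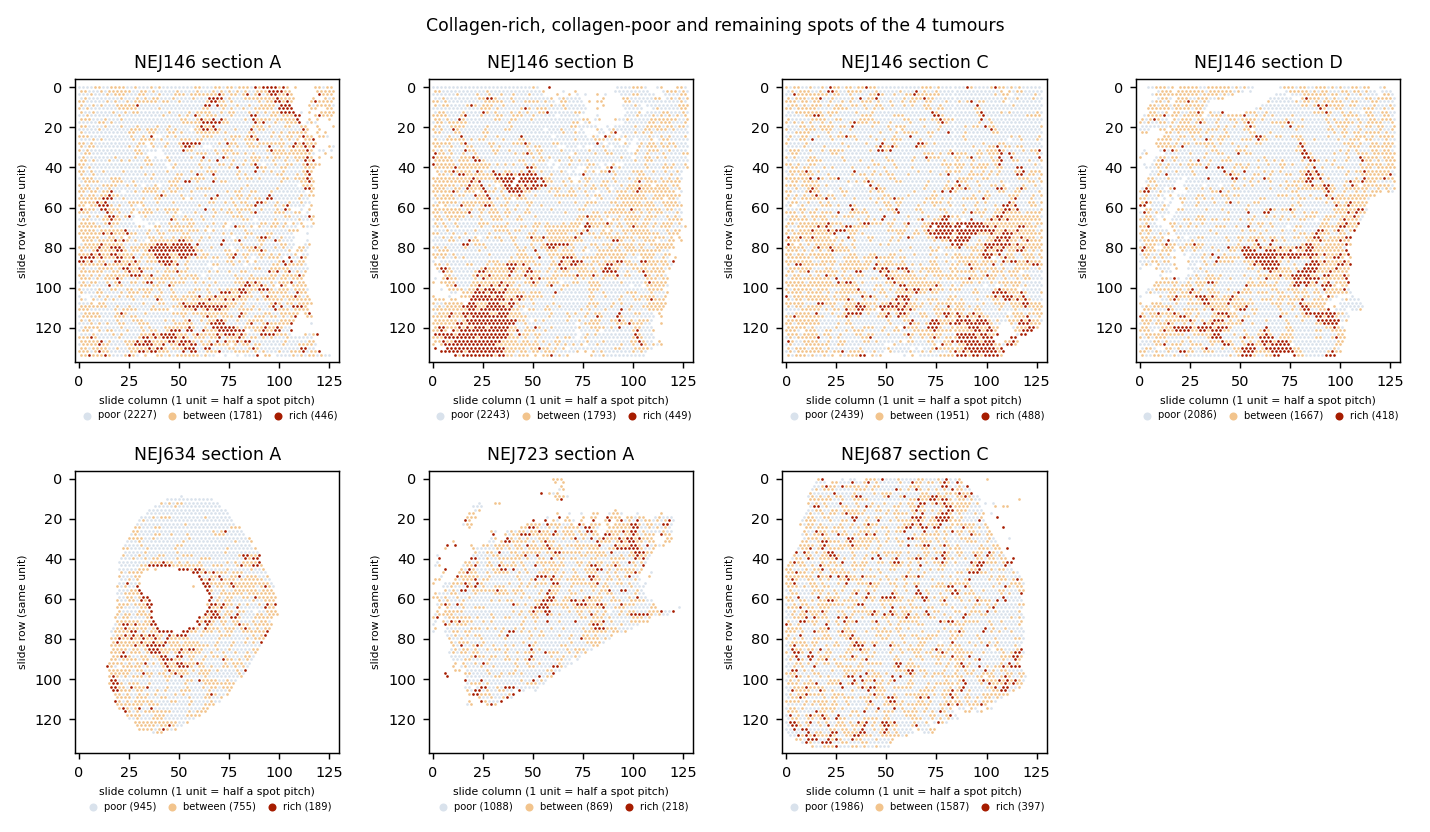
Map of the 7 tumour sections, each point 1 used spot at its slide column and row (drawn to scale): collagen-poor spots pale blue, collagen-rich spots dark red, spots in between orange, with counts under each panel. Section B of NEJ146 has the largest patch, collagen-rich spots rim a gap in NEJ634, and the largest patch of NEJ687 holds 19 spots.

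Depth and position moved with the side in some sections. The median UMIs of collagen-rich and collagen-poor spots were 22006 and 32771 in NEJ634, a ratio of 0.67, and differed less elsewhere (18870 and 19900.5 in NEJ723, 14086 and 12633.5 in NEJ687, 18479 to 24040.5 and 16140 to 22162 in NEJ146). Spots with fewer than 6 used neighbours, at a margin or gap, made up 33.9% of the collagen-rich and 9.10% of the collagen-poor spots of NEJ634, and 6.30% to 21.1% against 7.55% to 17.3% in the other sections. The mitochondrial share of UMIs was lower on the collagen-rich side in every section, by most in section B of NEJ146 (5.44% against 7.19%). With spots ranked within classes of equal UMIs, 813 genes were called higher and 163 lower, and with spots that have all 6 neighbours 655 and 136, against 644 and 126 in the comparison described next.

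The comparison asked which of the remaining genes were more or less abundant where collagen messages were highest. Counts were summed per side and tumour without the 3 rule genes and compared by edgeR's quasi-likelihood test with the tumour as a block and Benjamini-Hochberg adjustment. Of 11873 genes that averaged 2 CPM or more over the 8 sums, 644 (5.42%) were higher in collagen-rich spots and 126 (1.06%) lower at an adjusted p under 0.05, and the median log2 fold change of all tested genes was -0.03. For the same genes, an unadjusted p under 0.05 was reached by 15.7% on the higher and 15.8% on the lower side, and DESeq2 called 8.37% higher and 3.66% lower; list counts by these measures are to be read against these shares. Differences by tumour carry no TMM scaling, and their median over all tested genes was 0.16, 0.24, 0.04 and 0.04 in NEJ146, NEJ634, NEJ723 and NEJ687. By them, 3646 of the 11873 genes were higher in all 4 tumours and 944 lower, and counts of such genes are to be read against these. Of the 644 genes, 631 were higher in each of the 4 tumours, and their median log2 difference was 1.46, 1.43, 0.74 and 0.79 in NEJ146, NEJ634, NEJ723 and NEJ687. The higher genes were thus separated by about as much in NEJ634 as in NEJ146, and by less in NEJ723 and NEJ687. Genes called lower moved less, with a median log2 fold change of -0.44, and 123 of the 126 were lower in each tumour. Without TMM scaling (a rescaling of library totals by the bulk of the genes) 971 genes were called higher and 31 lower, so 96.9% of the calls were higher against 83.6% with it, and the median of all genes shifted by 0.159 to 0.128. Dropping a tumour from the comparison left 163 genes higher and 1 lower without NEJ146, 259 and 4 without NEJ634, 730 and 57 without NEJ723 and 461 and 71 without NEJ687; 129 of the 644 higher genes and 1 of the 126 lower ones were called in all 4 of these fits. A gene could also pass the minimum through its collagen-rich level alone: 422 tested genes averaged under 2 CPM in collagen-poor spots, 154 of the 644 among them, and such genes had to be higher to be tested.

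Of the other collagens, 12 of 13 tested rose with the rule genes and 1 did not pass the test, beside 5.42% of all genes. The 12 include Col6a5, Col8a1 and Col11a1, which had to be higher to be tested. The list median log2 fold change was 1.98, and the median difference by tumour was 2.33, 2.28, 1.28 and 1.44. Col6a3, a chain of the beaded filament collagen VI, stood at 99.4, 393, 100.1 and 49.4 CPM in collagen-rich spots and 13.5, 58.3, 33.8 and 11.6 CPM in collagen-poor spots. Each tumour was higher on its collagen-rich side, but the low NEJ687 value on that side fell below the NEJ634 value on the poor side. The log2 fold change of Col6a3 was 2.18 ± 0.20 (SE, n = 4 tumours; edgeR adjusted p = 0.0057). Col5a2, of the type V collagen that nucleates type I fibrils, stood at 62.5, 209, 55.6 and 27.1 CPM against 10.4, 31.4, 16.4 and 8.38 CPM, a log2 fold change of 2.07 ± 0.17 (adjusted p = 0.0045). Col14a1, which binds to the surface of fibrils, stood at 114, 195, 74.8 and 113 CPM against 37.5, 78.1, 30.1 and 45.7 CPM, and its log2 fold change of 1.22 ± 0.07 had the smallest error of the collagens given with one here (adjusted p = 0.0024). Col8a1, a short-chain network collagen of vessel walls, was low on the poor side in every tumour (0.692, 2.09, 0.229 and 0.328 CPM) and reached 8.09, 29.9, 0.481 and 2.43 CPM on the rich side, with little in NEJ723 on either side. Its log2 fold change of 3.20 ± 0.31 is given without its test, since Col8a1, like Col6a5 and Col11a1, reached the minimum level through its collagen-rich side alone. Col5a1, Col6a1, Col6a2, Col12a1 and Col16a1 also rose, by 1.84 to 2.19, and Col5a3, Col6a5 and Col11a1 by 0.89, 2.25 and 2.83. Col27a1, which is made mainly in cartilage, was the member that did not pass (log2 fold change -0.33, adjusted p = 0.074). Called without NEJ146, NEJ634, NEJ723 and NEJ687 in turn were 8, 10, 12 and 9 of the 13. Col5a1, Col5a2, Col6a1, Col6a2, Col6a3, Col14a1 and Col16a1 passed in all 4 of these fits.

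Of 24 tested genes that make and crosslink collagen 10 rose and 14 did not pass, with a list median of 0.96. In all 4 tumours 16 were higher, beside 3646 of 11873 over all genes. The crosslinking enzyme Lox, lysyl oxidase, had the largest fold change of the list and stood at 21.1, 45.1, 25.7 and 12.2 CPM in collagen-rich spots and 3.52, 5.83, 6.4 and 2.19 CPM in collagen-poor spots. No collagen-poor value reached a collagen-rich one, and the log2 fold change was 2.35 ± 0.14 (adjusted p = 0.0024). Loxl1 and Loxl2 rose by 2.34 and 1.48. The collagen-binding glycoprotein gene Sparc stood at 467, 1240.1, 440.1 and 349 CPM against 114, 300.0, 233 and 178 CPM (1.34 ± 0.20, adjusted p = 0.019). Adamts2, the protease that removes the amino-terminal propeptide of procollagen, stood at 52.7, 97.8, 24.8 and 34.5 CPM against 6.82, 18.9, 7.36 and 8.05 CPM, again without overlap between the sides (2.17 ± 0.16, adjusted p = 0.0045). Serpinh1, the collagen chaperone HSP47, was highest in NEJ634 on both sides, at 112, 411, 52.9 and 54.5 CPM against 28.0, 86.4, 29.6 and 26.1 CPM (1.41 ± 0.23, adjusted p = 0.026), and lost its call without NEJ146 (adjusted p = 0.12) or NEJ634 (0.053). The general enzymes of the endoplasmic reticulum that also serve hepatocytes did not pass. P4hb, the beta subunit of prolyl 4-hydroxylase and a disulfide isomerase, stood at 603, 789.7, 947 and 947 CPM against 539.9, 662, 978 and 981 CPM, higher on the collagen-rich side in NEJ146 and NEJ634 and lower in the other tumours (log2 fold change -0.08 ± 0.07, adjusted p = 0.49, but 0.08 ± 0.07 without TMM, so its sign depends on the scaling). Ppib, cyclophilin B, stood at 431, 444, 436 and 656 CPM against 345, 362, 422 and 673 CPM (adjusted p = 0.99). Without NEJ146 5 of the 24 genes were called higher, and without NEJ634 6.

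Basement membrane genes rose in 7 of 15 cases (12 by DESeq2), with a median of 1.15. Of the 7, Col4a5 reached the minimum level through its collagen-rich side alone and had to be higher to be tested. Col4a1, a chain of the type IV collagen network, was abundant on both sides, with 284, 879, 633 and 241 CPM in collagen-rich spots against 78.4, 231, 273 and 117 CPM (1.35 ± 0.14, adjusted p = 0.0051). Col15a1, of the zone between basement membrane and fibrils, stood at 25.8, 75.9, 16.6 and 5.51 CPM against 1.58, 10.6, 4.76 and 0.911 CPM, low in NEJ687 on both sides (2.71 ± 0.33, adjusted p = 0.012). The laminin chains Lama2, Lama4 and Lamb1 rose by 1.61, 1.15 and 1.26, while the nidogens Nid1 and Nid2 and the perlecan gene Hspg2 did not pass (adjusted p of 0.059, 0.073 and 0.088). With NEJ146 left out 3 of the 15 were called.

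Elastic fibres and small proteoglycans formed the largest group of higher genes, 23 of 28 tested, with a median log2 fold change of 1.64; 23 were called without NEJ634 and 16 without NEJ146. Eln (GRCm38 chr5:134702593-134747323), the elastin of arterial and portal walls, stood at 186, 203, 66.4 and 96.3 CPM in collagen-rich spots, where the 4 NEJ146 sections varied by an SD of 20.5, and at 13.9, 46.4, 12 and 11.8 CPM in collagen-poor spots. The lowest collagen-rich value, in NEJ723, exceeded the highest collagen-poor one, in NEJ634. The log2 fold change was 2.68 ± 0.28, a 6.43-fold difference (adjusted p = 0.0095). Genes of the fibrillin scaffold on which elastin is laid down rose with it. Mfap4 stood at 50.1, 51.8, 4.57 and 17 CPM against 3.48, 9.42, 0.777 and 1.31 CPM, with NEJ723 lowest on both sides (3.01 ± 0.29, adjusted p = 0.0057). Fbn2, fibrillin 2, stood at 5.85, 61.2, 11.1 and 3.89 CPM against 0.683, 5.77, 3.34 and 0.765 CPM, highest in NEJ634 (2.56 ± 0.27, adjusted p = 0.0057). Mfap2 and Fbln1 rose by 2.63 and 3.0, and Fbn1, Fbln2 and Fbln5 by 1.91, 2.14 and 1.62. Mgp, matrix Gla protein, an inhibitor of calcification made by smooth muscle cells, stood at 414, 336, 119 and 131 CPM against 21.9, 84.2, 24.5 and 13.4 CPM (2.78 ± 0.42, adjusted p = 0.027), and missed the threshold without NEJ146 (adjusted p = 0.0501) or NEJ687 (0.0652). Fbln1 and the proteoglycan gene Fmod are counted among the 23 but given without a test, since they reached the minimum level through their collagen-rich side alone.

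Among the small leucine-rich proteoglycans, which bind collagen fibrils and set their spacing, lumican moved evenly. Lum stood at 115, 254, 52.5 and 37.1 CPM in collagen-rich spots against 22.8, 63.1, 17.5 and 12.6 CPM, and its log2 fold change was 1.73 ± 0.11 (adjusted p = 0.0024). Bgn, biglycan, stood at 439, 720.3, 192 and 226 CPM against 88.5, 167, 77.5 and 83.9 CPM with no overlap between the sides (1.63 ± 0.15, adjusted p = 0.0049). Dcn, decorin, which also marks quiescent fibroblasts and stellate cells, was already abundant in collagen-poor spots, at 109, 149.9, 25.9 and 72.1 CPM, and reached 328, 272, 80.1 and 183 CPM in collagen-rich spots (1.18 ± 0.15, adjusted p = 0.011; 0.064 without NEJ146). The periostin gene Postn stood at 24.7, 196, 18.0 and 38.7 CPM against 7.03, 31.4, 2.84 and 12.2 CPM, most of all in NEJ634 (2.0 ± 0.19, adjusted p = 0.0056). Fn1, fibronectin, which hepatocytes secrete into plasma as well, stood at 716, 1244, 919.7 and 864 CPM against 453, 486, 570.5 and 771 CPM and did not pass (log2 fold change 0.56 ± 0.16, adjusted p = 0.076), although each tumour was higher on its collagen-rich side.

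**Figure D2:**
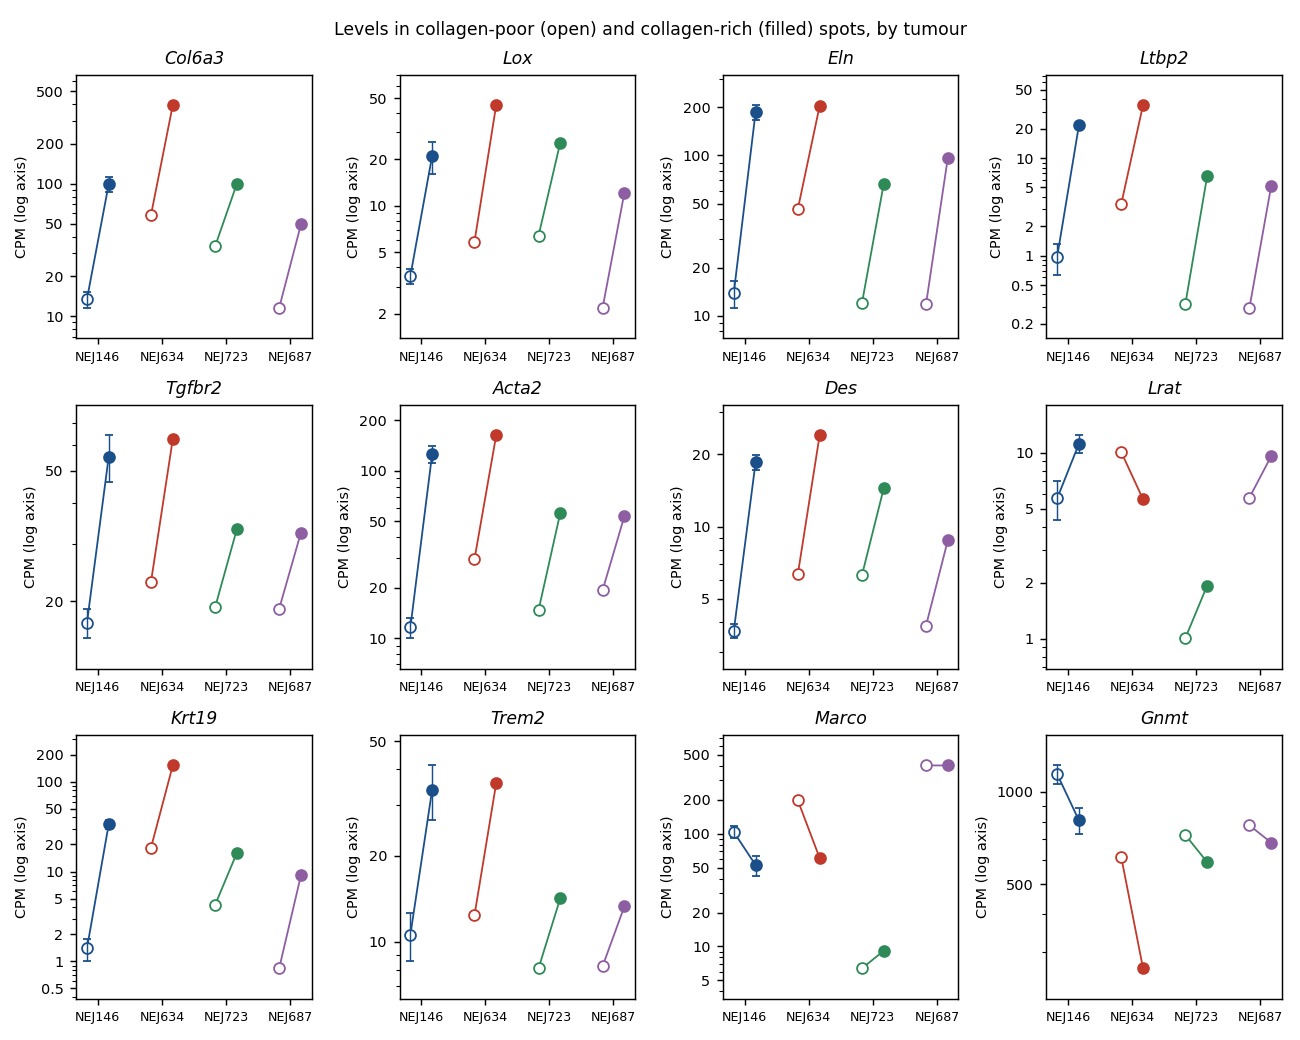
Levels of 12 genes in collagen-poor (open circles) and collagen-rich spots (filled circles) of each tumour, in CPM on a log axis; NEJ146 is the mean of its 4 sections with SD bars, and the other tumours are 1 section each. Lines rise steeply from left to right for Col6a3, Lox, Eln and Ltbp2 in every tumour, while Lrat and Marco go down in some tumours and up in others and Gnmt goes down in all 4.

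Genes that remodel matrix rose in 10 of 17 cases, or 6 without NEJ146, with a median of 1.42. Mmp2, gelatinase A, stood at 46.3, 92.5, 15.6 and 18.5 CPM in collagen-rich spots against 5.55, 17.5, 5.63 and 4.01 CPM (2.2 ± 0.21, adjusted p = 0.0057). The collagen uptake receptor gene Mrc2 rose by 1.96 ± 0.25 (adjusted p = 0.012), and Timp3 and Timp2, inhibitors of metalloproteinases, by 1.60 and 1.42. Timp1, the inhibitor most tied to fibrosis, stood at 44.8, 87.3, 37.3 and 8.27 CPM against 2.90, 12.1, 28.9 and 2.48 CPM, with the sides of NEJ723 closest to each other, and did not pass with all 4 tumours (2.12 ± 0.60, adjusted p = 0.088), but did without NEJ723 (0.0212). Timp3 lost its call without NEJ146 (adjusted p = 0.0646) or NEJ634 (0.0617). Of the genes of receptors that read collagen and of integrins, 3 of 14 rose, Itga8 by 1.66, Ddr2 by 1.28 and Itga1 by 0.48, against a list median of 0.42. Ddr1 had a log2 fold change of 1.68 and an adjusted p of 0.057. Without NEJ146 or NEJ634, 2 receptor genes were called, against 7 without TMM, 7 within UMI classes and 8 by DESeq2.

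Of ligands and latency proteins of TGF-beta, 9 of 10 tested genes were called higher, with a median of 1.69. Of the 9, Ltbp1, Ltbp2, Tgfb2 and Tgfb3 reached the minimum level through their collagen-rich side alone and had to be higher to be tested. Ltbp2 (GRCm38 chr12:84783212-84876532), which binds fibrillin beside elastic fibres, stood at 21.8, 35.0, 6.5 and 5.19 CPM in collagen-rich spots (SD 1.81 over the NEJ146 sections) and at 0.979, 3.39, 0.320 and 0.291 CPM in collagen-poor spots, a log2 fold change of 3.76 ± 0.24, given without its test because of that entry. As a description only, the highest collagen-poor value of Ltbp2, in NEJ634, lay below its lowest collagen-rich one, in NEJ687. Ltbp3, which stores latent TGF-beta, stood at 29.5, 82.9, 16.6 and 10.1 CPM against 3.78, 11.2, 3.89 and 3.31 CPM (2.32 ± 0.20, adjusted p = 0.0045). Of the ligands themselves, Tgfb3 showed a wide separation, with 10.3, 17.5, 4.57 and 4.70 CPM against 1.13, 2.16, 1.28 and 1.89 CPM (log2 fold change 2.26 ± 0.32, given without its test for the same reason). Tgfb1, which many immune cells also make, showed a small one, with 26.2, 43.2, 42.4 and 39.4 CPM against 15.4, 21.6, 22.0 and 30.5 CPM (0.60 ± 0.11, adjusted p = 0.024). Tgfb2, Ltbp1, Ltbp4, Gdf10 and Lrrc32 rose by 1.67, 1.88, 1.28, 1.70 and 0.81, and Inhba did not pass (0.61, adjusted p = 0.26). Fewer of the 10 were called without NEJ146 (4) or NEJ634 (6), and Tgfb1 kept its call in 1 of the 4 fits that leave out a tumour (adjusted p of 0.0719, 0.0684 and 0.0520 without NEJ146, NEJ634 and NEJ723).

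At the receiving end of the pathway 4 of 12 receptor and SMAD genes rose, with a median of 0.57. Tgfbr2, the ligand-binding receptor, stood at 55.3, 62.6, 33.2 and 32.4 CPM in collagen-rich spots against 17.2, 23.0, 19.2 and 19 CPM, without overlap (1.04 ± 0.14, adjusted p = 0.012). The pseudoreceptor Bambi and the endothelial receptors Eng and Acvrl1 rose by 1.24, 0.85 and 0.78. Tgfbr1, Smad2, Smad3, Smad4, Smad6 and Smad7 had log2 fold changes of 0.46, 0.22, 0.35, -0.04, 0.40 and 0.67 and did not pass. Of the 4 higher genes, 2 were called without NEJ146. Target genes shared by TGF-beta and the mechanical sensor YAP rose in 7 of 8 cases, with a median of 1.79; Ltbp2 is also one of the ligand and latency genes and Tgfbi one of the matrix glycoproteins, and Ltbp2 and Ankrd1 reached the minimum level through the collagen-rich side alone. Ctgf, connective tissue growth factor, stood at 43.1, 67.0, 34.4 and 64.5 CPM against 7.42, 15.5, 10.6 and 19.6 CPM (1.86 ± 0.13, adjusted p = 0.0024). Ankrd1, a YAP target of stretched cells, stood at 8.77, 14.0, 9.63 and 2.92 CPM against 0.503, 1.33, 2.88 and 0.619 CPM. Its log2 fold change of 2.74 ± 0.38 is given without its test, since it had to be higher to be tested. For Ctgf every collagen-rich value lay above every collagen-poor one. For Ankrd1 the lowest collagen-rich value, in NEJ687, was nearly level with the highest collagen-poor one, in NEJ723. Without NEJ146, 4 of the 8 targets were called.

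Both PDGF receptors, which drive migration and growth of mesenchymal cells, rose. Pdgfrb, the receptor of pericytes and stellate cells, stood at 43.3, 74.3, 40.7 and 28.7 CPM against 9.48, 19.4, 20.3 and 9.14 CPM (1.55 ± 0.16, adjusted p = 0.0063), and Pdgfra, that of fibroblasts, had a log2 fold change of 1.5 ± 0.19 (adjusted p = 0.0083). Of the ligands Pdgfd and Pdgfc rose by 2.15 and 1.0, while Pdgfa and Pdgfb had 1.17 and 0.59 and did not pass. That made 4 of 6 genes, and 2 without NEJ634. Among the 4, Pdgfd reached the minimum level through its collagen-rich side alone. Of 12 genes of Wnt, hedgehog and Notch signalling in stroma 5 rose: the Wnt antagonist Sfrp1, Dkk3, and the Notch genes Jag1, Notch3 and Heyl, by 3.04, 2.02, 1.82, 1.3 and 1.60, against a list median of 1.15. Sfrp1 stood at 13.8, 56.7, 2.17 and 2.43 CPM in collagen-rich spots against 0.420, 6.06, 0.823 and 0.692 CPM, mostly in NEJ634 and NEJ146. It is counted among the 5 but given without its test, since it reached the minimum level through its collagen-rich side alone. Without NEJ146 or NEJ634, 2 of the 12 were called, without NEJ687 3 and by limma 3. Igfbp7, a binding protein of vessels and stroma, stood at 949.6, 1259, 531 and 475 CPM against 209, 375, 232 and 195 CPM (1.44 ± 0.14, adjusted p = 0.0051). It and Igfbp3 were the 2 of 7 IGF binding protein genes that rose, against 3 without NEJ723 and 1 without any other tumour.

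Markers of contractile cells were higher in collagen-rich spots of every tumour for all 14 of the 14 genes tested, beside 3646 of 11873 over all genes. The test was passed by 9, among them Actg2, which reached the minimum level through its collagen-rich side alone. The list median was 1.54, and differences by tumour were wider in NEJ146 and NEJ634. Acta2, smooth muscle actin, stood at 126, 163, 56.1 and 53.5 CPM in collagen-rich spots (SD 14.4 over the NEJ146 sections) against 11.6, 29.6, 14.7 and 19.3 CPM in collagen-poor spots. The sides did not overlap, and the log2 fold change was 2.19 ± 0.30 (adjusted p = 0.018; 0.0862 without NEJ634). Tagln, transgelin, stood at 132, 92.0, 35.9 and 42.8 CPM against 15.5, 20.7, 9.92 and 15.3 CPM (2.02 ± 0.24, adjusted p = 0.012). Myh11, the myosin of mature smooth muscle, stood at 30.4, 24.3, 7.94 and 5.51 CPM against 2.27, 3.46, 3.02 and 2.55 CPM and was low in NEJ687 and NEJ723 (2.28 ± 0.44, adjusted p = 0.043), with adjusted p of 0.0762 and 0.151 without NEJ146 and NEJ634. Without NEJ146 5 of the 14 genes were called and without NEJ634 3.

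Of 15 stellate cell markers tested 7 rose, with a median of 0.65. Cygb, cytoglobin, stood at 55.3, 81.3, 30.3 and 24.6 CPM against 9.46, 24.5, 12.4 and 7.47 CPM (1.69 ± 0.18, adjusted p = 0.0067), and Des, desmin, at 18.5, 24.1, 14.4 and 8.75 CPM against 3.67, 6.34, 6.27 and 3.86 CPM (1.54 ± 0.19, adjusted p = 0.0083). Rgs5, a pericyte gene, stood at 31.5, 28.5, 23.3 and 22.4 CPM against 12.3, 10.3, 11.3 and 11.7 CPM, nearly the same in all tumours (1.05 ± 0.09, adjusted p = 0.0045). Of the 15 markers 8 did not pass. Lrat, which makes retinyl esters, stood at 11.2, 5.6, 1.93 and 9.56 CPM against 5.67, 10.1, 1.01 and 5.72 CPM, lower in the collagen-rich spots of NEJ634 and higher in those of the other tumours, with no call (0.27 ± 0.33, adjusted p = 0.63). Ecm1 stood at 80.1, 65.4, 29.6 and 135 CPM against 34.7, 79.2, 15.4 and 85.5 CPM with the same division (0.47 ± 0.26, adjusted p = 0.27; 0.0146 without NEJ634), and Colec10 had a log2 fold change of 0.05. The number of stellate markers called was 4 without NEJ146 and 8 without NEJ634.

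Portal fibroblast markers rose in 8 of 12 cases, with a median of 1.97; 3 of them, Eln, Mfap4 and Fbln2, are also in the list of matrix glycoproteins, and Col15a1 in that of the basement membrane. Gas6 stood at 155, 122, 37.3 and 52.5 CPM in collagen-rich spots against 17.4, 27.5, 13.8 and 15.7 CPM (2.0 ± 0.26, adjusted p = 0.015; 0.0685 without NEJ634). Thy1 stood at 21.7, 120.5, 48.4 and 6.97 CPM against 1.67, 23.3, 24.1 and 2.77 CPM, higher on the rich side in each tumour by very different amounts, and did not pass (1.94 ± 0.43, adjusted p = 0.062; 0.0363 without NEJ723). Dropping NEJ146 or NEJ634 left 5 of the 12 called. The mesothelium, the lining of the liver capsule, also makes collagen. None of its 8 markers reached the minimum level. Their sum was 0.134, 0.105, 0.019 and 0.026 UMIs per 10000 in collagen-rich spots of the 4 tumours and 0.002 to 0.024 in collagen-poor spots. Its defining gene Msln stood at 6.04, 5.37 and 1.2 CPM in the collagen-rich spots of NEJ146, NEJ634 and NEJ723 and had 0 UMIs in those of NEJ687, which allows up to 0.486 CPM by counting error alone. It was thus at or near 0 where collagen was read in NEJ687 and NEJ723, and higher on the collagen-rich side of NEJ146 and NEJ634, where the collagen-poor levels were 0.55 and 1.08 CPM.

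**Figure D3:**
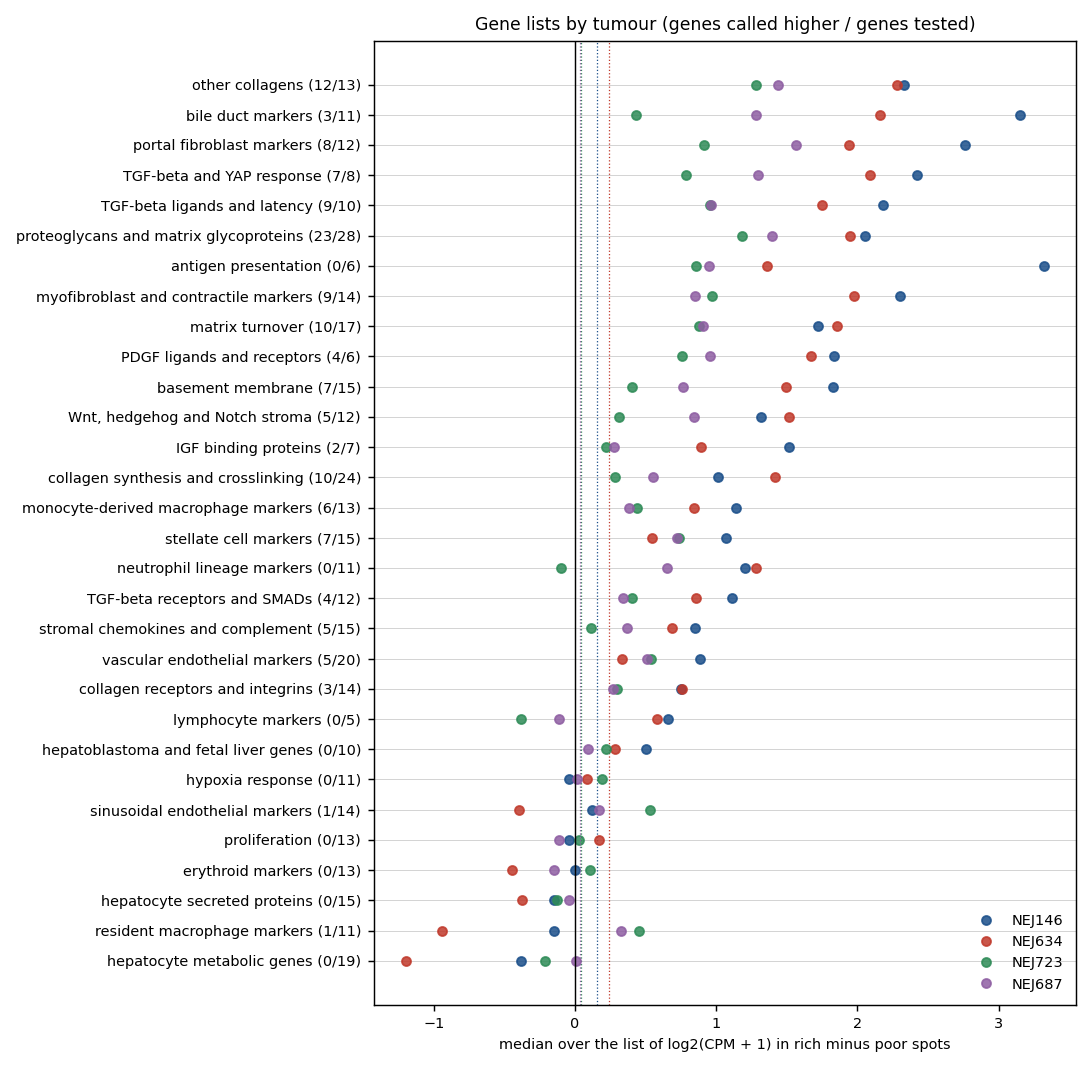
Median over each gene list of the difference in log2(CPM + 1) between collagen-rich and collagen-poor spots, 1 point per tumour; the label gives the list and, in brackets, genes called higher over genes tested, and dotted lines mark the median of all tested genes in each tumour. The other collagens lie above 1 in all 4 tumours, antigen presentation in NEJ146 is the point furthest right, at 3.33, and the hepatocyte metabolic list in NEJ634 the one furthest left, at -1.2.

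Markers of other cell types moved with the collagen-rich side in some cases, and their part in the differences above was not tested. Of 20 vascular endothelial genes 5 rose, Cd34 (also on the portal fibroblast list) by 1.70, Vwf by 1.5, Angpt2 by 0.96, Tie1 by 0.76 and Emcn by 0.68, with a median of 0.52 over the list. Vwf, the clotting factor of larger vessels, stood at 56.3, 11.7, 25.0 and 43.4 CPM against 10.5, 7.04, 10.8 and 12.1 CPM, least in NEJ634 (adjusted p = 0.036; 0.110 and 0.0916 without NEJ146 and NEJ687). Without NEJ146 none of the 20 passed (0 genes; 13 of the 20 were higher at an unadjusted p under 0.05 with all tumours, beside 15.7% of all genes, DESeq2 called 7, beside 8.37%, and edgeR 11 without TMM, beside 8.18%, and 7 within UMI classes, beside 6.87%), and 3 and 2 passed without NEJ723 and NEJ687. Sinusoidal endothelial markers, of the leaky capillaries between hepatocytes, had a median of -0.02, or 0.15 without TMM and 0.14 without NEJ634, and 1 of 14 was called higher, a share near the 5.42% of all genes, the scavenger receptor Stab1 (0.61 ± 0.11, adjusted p = 0.025; 0.0539 and 0.0684 without NEJ146 and NEJ634). By tumour 9, 4, 13 and 12 of the 14 were higher on the collagen-rich side, with medians of 0.12, -0.39, 0.53 and 0.17. Over all tested genes the medians were 0.16, 0.24, 0.04 and 0.04, so NEJ634 and, by a little, NEJ146 lay below them.

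Of 13 genes linked to monocyte-derived macrophages 6 rose, Ccr2, Trem2, Ms4a7, Gpnmb, Lyz2 and Ctss, by 1.62, 1.07, 0.93, 0.88, 0.66 and 0.61. Trem2, a lipid receptor of scar-associated macrophages, stood at 33.9, 35.7, 14.2 and 13.3 CPM in collagen-rich spots against 10.6, 12.4, 8.10 and 8.23 CPM, without overlap (adjusted p = 0.014; 0.060 without NEJ146). Ccr2, the chemokine receptor of recruited monocytes, stood at 10.8, 16.8, 4.09 and 6.48 CPM against 1.68, 4.25, 2.01 and 3.10 CPM (adjusted p = 0.023; 0.0641 and 0.0818 without NEJ146 and NEJ634). Its ligand gene Ccl2, which stellate cells and macrophages make, stood at 25.7, 17.5, 27.2 and 16.0 CPM against 6.13, 6.88, 14.1 and 7.32 CPM (1.24 ± 0.17, adjusted p = 0.012) and passed in each fit without a tumour. Only 1 of the 13 genes, Ctss, was called without NEJ146. Of 11 markers of Kupffer cells, the resident macrophages, 1 was called higher, beside 5.42% of all genes. It was C1qa, by 0.41 ± 0.08 (adjusted p = 0.038), which missed the threshold whenever a tumour was left out. DESeq2 called 2 higher, beside 8.37% of all genes, and edgeR 3 without TMM, beside 8.18%, and 3 within UMI classes, beside 6.87%. The list median was -0.15 in NEJ146 and -0.95 in NEJ634, with 4 of the 11 higher on the collagen-rich side in each, and 0.45 in NEJ723 and 0.33 in NEJ687, with 10 of the 11 higher in each. Summed, the markers came to 14.4, 10.8, 7.32 and 24.2 UMIs per 10000 in collagen-rich spots and 12.2, 12.9, 5.32 and 20.6 in collagen-poor spots. Marco stood at 52.8, 60.9, 9.14 and 403 CPM against 104, 197, 6.4 and 404 CPM, lower in the collagen-rich spots of NEJ146 and NEJ634, a little higher in NEJ723 and level in NEJ687 (-0.84 ± 0.40, adjusted p = 0.22). Clec4f, the most specific marker, stood at 67.2, 57.7, 0.481 and 169 CPM against 72.2, 117, 0.229 and 128 CPM and was nearly absent from NEJ723. The resident list had a median of -0.31, or -0.13 without TMM and 0.02 without NEJ634, a direction that rests on that tumour.

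Of the 15 chemokine and complement genes 5 rose, Cxcl14 by 2.19, Ccl2, Csf1 by 1.0, Cxcl16 by 0.97 and Serping1 by 0.63, and 3 were called without NEJ146, NEJ634 or NEJ687. The neutrophil lineage list had a median of 0.61 and no gene called by edgeR (0 of 11; 7 at an unadjusted p under 0.05, 7 by DESeq2, and 5 by edgeR without NEJ723). Lymphocyte markers were few: 5 of 13 listed reached the minimum, and 0 were called by edgeR or DESeq2 (1 at an unadjusted p under 0.05, Gzma, which was lower). Summed, they came to 0.219 to 0.498 UMIs per 10000 in collagen-rich spots and 0.256 to 0.305 in collagen-poor ones. Genes of MHC class II antigen presentation were higher on the collagen-rich side of every tumour in 6 of 6 cases, beside 3646 of 11873 over all genes. Their median was 1.61, with sizes that differed between tumours. By edgeR 0 were called (6 at an unadjusted p under 0.05, 5 by DESeq2, and 4 by edgeR without NEJ146). H2-Eb1, the beta chain of I-E, stood at 146, 46.0, 9.39 and 40.2 CPM against 12.4, 15.9, 4.89 and 15.8 CPM. The log2 difference was 3.48 in NEJ146 and 0.82 in NEJ723, with the other tumours between. Cd74, the invariant chain, stood at 388, 163, 42.4 and 179.9 CPM against 34.9, 53.8, 20.6 and 91.6 CPM (1.61 ± 0.44, adjusted p = 0.084).

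Bile duct markers accompanied collagen in 3 of the 4 tumours most clearly. The list median was 1.98, and by tumour 3.15, 2.16, 0.43 and 1.28, so NEJ723 stood apart. Summed over the list, the bile duct level was 6.98, 23.5, 7.85 and 4.05 UMIs per 10000 in collagen-rich spots and 1.23, 5.29, 6.24 and 1.14 in collagen-poor spots. Of 11 genes tested 3 rose. Krt19 is a keratin of biliary cells, and the study also saw its protein in rare, poorly differentiated tumour cells. Krt19 RNA stood at 33.6, 152, 16.1 and 9.08 CPM in collagen-rich spots (SD 3.55 over the NEJ146 sections) against 1.39, 18.5, 4.25 and 0.838 CPM, highest in NEJ634 on both sides. Its log2 fold change of 3.06 ± 0.39 passed the test (edgeR adjusted p = 0.015), but not without NEJ634 (0.0579). Outside this list Ccl21a had a larger one, 4.99, at a mean of 20.7 against 0.507 CPM. It reached the minimum level through its collagen-rich side alone. Spp1, osteopontin, which biliary cells, macrophages and stressed hepatocytes can make, stood at 349.7, 1196, 76.3 and 264 CPM against 40.2, 171, 24.3 and 32.8 CPM (2.51 ± 0.24, adjusted p = 0.0061). Sox9, the transcription factor of biliary and progenitor cells, stood at 5.61, 10.3, 1.44 and 2.11 CPM against 1.25, 2.92, 1.01 and 0.437 CPM, a log2 fold change of 1.61 ± 0.29. It is counted among the 3 but given without its test, since it reached the minimum level through its collagen-rich side alone. Epcam, an adhesion protein of biliary cells that hepatoblastoma cells can also carry, stood at 29.9, 148, 76.5 and 7.94 CPM against 1.91, 27.4, 53.6 and 1.09 CPM. It was high in both sides of NEJ723 and did not pass with all tumours (2.09 ± 0.56, adjusted p = 0.082; 0.0138 without NEJ723). Tff2, a trefoil peptide of mucous glands that was in no list and was named for its size, stood at 22.9, 90.6, 1.2 and 1.62 CPM against 0.769, 12.4, 0.823 and 0.474 CPM, nearly all of it in NEJ634 and NEJ146 (3.02 ± 0.57, adjusted p = 0.041; 0.0539, 0.168 and 0.0692 without NEJ146, NEJ634 and NEJ687). DESeq2 called 8 of the 11 bile duct genes, and edgeR called 1 without NEJ634 and 6 without NEJ723.

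For 19 metabolic genes, such as those of the urea cycle, gluconeogenesis and bile salt transport, the median log2 fold change was -0.60, and -0.44 without TMM. By tumour the median difference was -0.38, -1.2, -0.21 and 0.01, so NEJ687 showed none, and without NEJ634 the list median was -0.28. Called by edgeR with all tumours were 0 of 19 (1 lower with sides taken within UMI classes; 10 lower at an unadjusted p under 0.05, beside 15.8% of all genes, and 8 lower by DESeq2, beside 3.66%). Cps1, the first enzyme of the urea cycle, stood at 1566, 786, 1092 and 2333 CPM in collagen-rich spots against 2492, 1912, 1208 and 2323 CPM, level between the sides in NEJ687 (-0.68 ± 0.25, adjusted p = 0.13). Gnmt, glycine N-methyltransferase, stood at 807, 266, 589.8 and 683 CPM against 1141, 612, 723 and 778 CPM, lower in each tumour (-0.70 ± 0.20, adjusted p = 0.078). The 15 genes of secreted plasma proteins had a median of -0.30, or -0.14 without TMM and -0.19 without NEJ634, with 0 called by edgeR (10 lower at an unadjusted p under 0.05, 4 by DESeq2).

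The 10 named genes called lower had log2 fold changes of -0.80 to -0.61 and were in no list: Sds, Fam47e, Acot3, Uroc1, Aldh8a1, Mmd2, Fmo4, Slc30a10, Acss1 and Aldh1b1. Several act in amino acid or aldehyde metabolism of hepatocytes. Sds, serine dehydratase, stood at 158, 71.9, 58.2 and 263 CPM against 279.7, 149, 72.8 and 341 CPM (-0.80 ± 0.16, adjusted p = 0.042; 0.214 and 0.0875 without NEJ146 and NEJ634). Uroc1, urocanase of histidine breakdown, stood at 47.6, 30.6, 22.4 and 66.8 CPM against 75.8, 49.3, 30.0 and 88.4 CPM (-0.71 ± 0.10, adjusted p = 0.012; 0.0699 without NEJ146). Aldh1b1, a mitochondrial aldehyde dehydrogenase, stood at 424, 517, 515 and 625 CPM against 705, 760.4, 624 and 753 CPM (-0.61 ± 0.12, adjusted p = 0.035; 0.158 and 0.121 without NEJ146 and NEJ634). In all 3 cases each tumour was lower on its collagen-rich side, while the values of different tumours overlapped between the sides. Without TMM, which shifts all genes upwards, 27 of the 126 lower genes were called lower.

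Of the 10 hepatoblastoma and fetal liver genes edgeR called 0 (3 higher and 1 lower at an unadjusted p under 0.05; 3 higher and 1 lower by DESeq2; 1 higher by edgeR without TMM, within UMI classes or without NEJ723), with a median of 0.12, or 0.28 without TMM. Afp, alpha-fetoprotein, stood at 2924, 3692, 3379 and 4313 CPM in collagen-rich spots against 1868, 4162, 3303 and 4040.3 CPM, lower in NEJ634 and higher in the other tumours, most of all in NEJ146 (-0.01 ± 0.13, adjusted p = 0.98). The imprinted RNA H19 stood at 5079, 1530.1, 16.8 and 8216 CPM against 6543, 3554, 9.65 and 9489 CPM and varied far more between tumours than between sides (-0.51 ± 0.32, adjusted p = 0.32). The 13 proliferation genes had a median of -0.13, or 0.03 without TMM, and 0 calls by edgeR or DESeq2 (4 lower at an unadjusted p under 0.05, beside 15.8% of all genes). For 11 hypoxia genes the median was 0.03, or -0.07 without NEJ723, and for 13 erythroid genes -0.24, or -0.14 without NEJ634, with 0 calls by edgeR in either list (1 higher and 4 lower, and 4 lower, at an unadjusted p under 0.05; DESeq2 called 2 hypoxia genes lower and 0 erythroid genes).

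The levels around collagen-rich spots were read by distance. It was counted in steps from the nearest collagen-rich spot, and counts were summed at each distance. The summed other collagens stood at 5.32, 14.5, 4.51 and 3.26 UMIs per 10000 within collagen-rich spots and at 2.10, 5.36, 2.25 and 1.5 in the spots next to them. At 4 or more steps they stood at 1.24, 3.53, 1.79 and 1.38. The adjacent spots were thus between 1.09 and 1.70 times the far level. Every collagen-rich spot counts as step 0, whatever the size of its patch, so the drop at step 1 follows from the choice of spots and gives no width of the collagen-rich areas. Contractile markers went from 15.7, 25.2, 14.7 and 6.30 to 6.24, 12.8, 10.4 and 4.49 in 1 step and to 4.22, 7.33, 8.93 and 3.93 at 4 or more. Bile duct markers in NEJ146 went from 6.98 to 3.0 and 1.29, and in NEJ634 from 23.5 to 11.7 and 5.67, with the adjacent spots still at 2.33 and 2.07 times the far level.

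Hepatocyte metabolic genes showed 3 profiles. In NEJ634 they were higher at each step, from 37.5 UMIs per 10000 in collagen-rich spots to 53.5, 63.0 and 67.3 at 1, 2 and 3 steps and 93.9 beyond. In NEJ146 they stood at 97.2 in collagen-rich spots, 133 at 1 and 2 steps, 121 at 3 and 112 at 4 or more. NEJ687 was level, at 93.8, 90.5 and 95.7, and NEJ723 went from 42.7 to 46.1 and 49.97. Proliferation genes differed little, with a ratio of collagen-rich to far spots of 0.91, 1.15, 1.04 and 0.94.

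**Figure D4:**
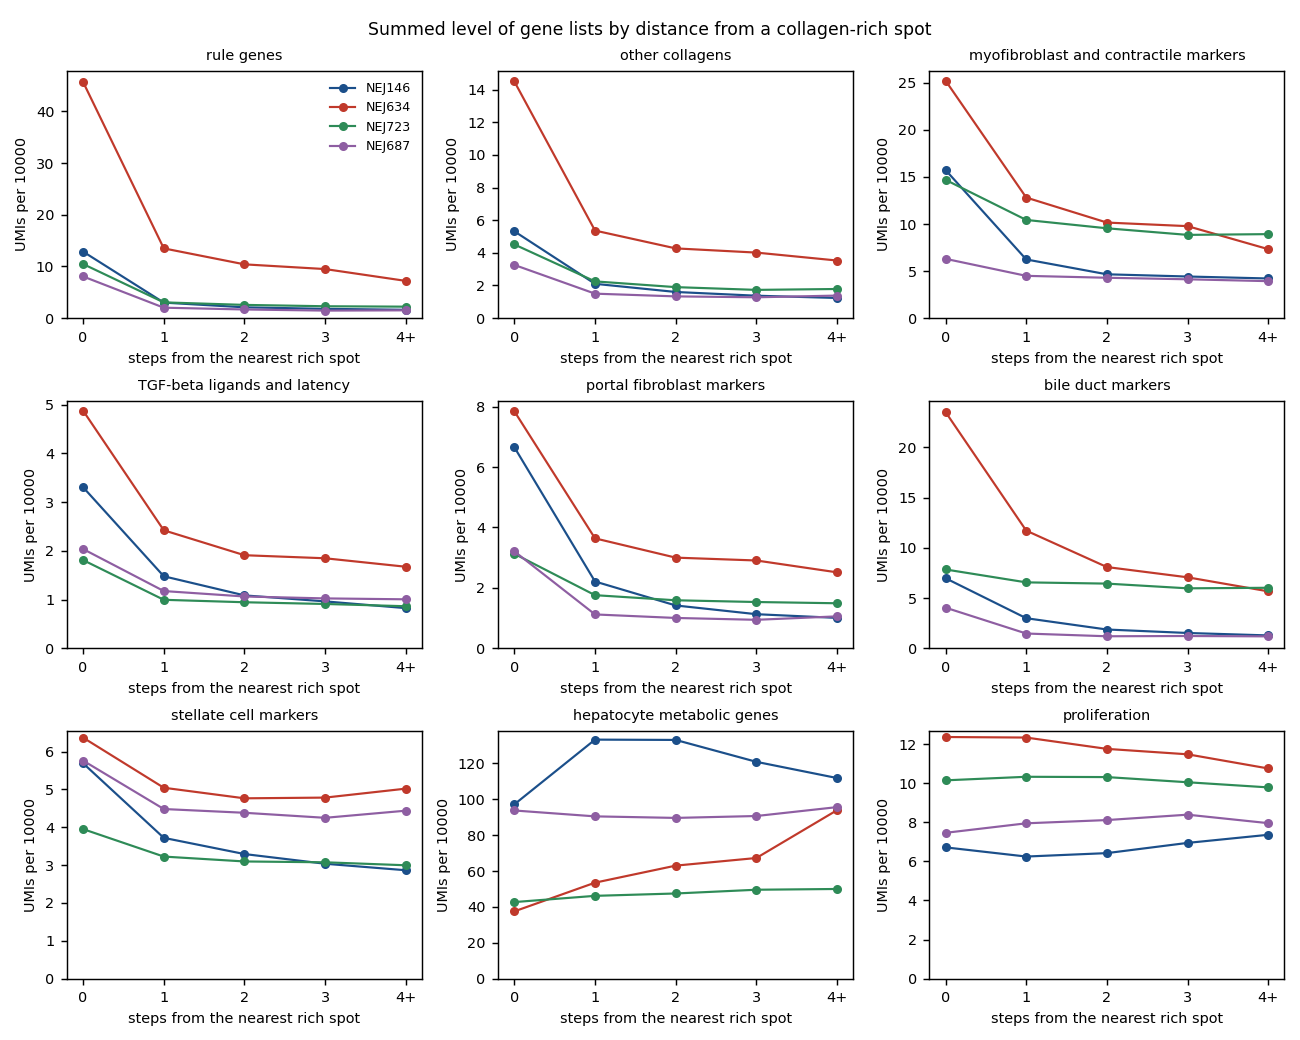
Summed level of 9 gene lists in UMIs per 10000 by distance from the nearest collagen-rich spot, in steps of 1 spot (0 is a collagen-rich spot, 4+ is 4 or more), 1 line per tumour and NEJ146 as the mean of its sections. Collagen, contractile, TGF-beta ligand and portal fibroblast lists have their widest step between 0 and 1 and go on falling by smaller steps in NEJ146 and NEJ634, hepatocyte metabolic genes climb with distance in NEJ634, are highest at 1 and 2 steps in NEJ146 and stay level in NEJ687.

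The spots chosen by collagen were in part the spots that other markers would choose. If the highest 10% of the spots of a section were taken by the summed level of another list, they included 60.3%, 76.2%, 45.9% and 36.8% of the collagen-rich spots for the other collagens, 61.7%, 61.4%, 27.5% and 26.2% for contractile markers and 58.2%, 52.4%, 28.9% and 36.5% for portal fibroblast markers. Bile duct markers gave 42.1%, 43.4%, 19.7% and 20.7%, and stellate markers 37.1%, 26.5%, 22.9% and 20.7%. Antigen presentation genes gave 54.9% in NEJ146 and 17% to 25.4% elsewhere. A list that had nothing to do with the score would hold about 10%, and the resident macrophage list held 13.7%, 8.99%, 22.9% and 14.4%; hepatocyte metabolic genes gave 6.16%, 2.75% and 12.8% in NEJ146, NEJ723 and NEJ687 and 0 of the 189 spots in NEJ634.

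The level of each list over the whole range of the score was read in steps of 10% of the spots. Portal fibroblast markers in NEJ687 went from 0.89 UMIs per 10000 in the lowest 10% to 1.35 in the second highest and to 3.21 in the highest. In NEJ634 they were higher at each 10%, from 1.82 to 5.38 and 7.85. Bile duct markers went from 3.55 to 16.7 and 23.5 in NEJ634 and from 1.15 to 1.87 and 4.05 in NEJ687, and in NEJ723 went from 6.33 to 6.67 and 7.85. In NEJ687 the largest step of both lists was that into the highest 10%, and the spots below it carried these markers too.

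To ask whether these differences were particular to the tumours, the same split was made in NEJ638, NEJ654 and NEJ677 (812 collagen-rich spots). The interaction of side with tissue group was tested. Lowest collagen-rich scores were 6.59, 2.90 and 2.10 there, against 4.64 to 26.9 in the tumours. Of the collagen-poor spots 15.2%, 46.8% and 81% held no rule-gene message, against 0% to 30.0%. Neighbours of collagen-rich spots were collagen-rich in 27.4%, 20.9% and 14.0% of cases, and those of collagen-poor spots in 5.77%, 7.81% and 9.32%. The split thus rested on fewer collagen messages in NEJ654 and NEJ677, and its part in the group differences was not tested. The collagen programme was present in these 3 tissues too. The 644 genes called higher in the tumours had a median difference of 1.0, 0.67 and 0.67 in the 3 tissues, in the same direction for 624, 589 and 577 of them, and the other collagens one of 1.58, 1.33 and 1.32. Over all tested genes the median was 0.08, 0.07 and 0.06. Of the 644, 154 averaged under 2 CPM in collagen-poor spots of the tumours. The 126 genes called lower carried over less, with medians of -0.11, -0.04 and -0.03 and the same direction for 91, 77 and 78 of them. The interaction was called for 10 genes (0.0844% of 11851) with a larger and 9 (0.0759%) with a smaller or opposite difference in the tumours, and for 1 gene of the lists, Rgs5. No collagen, matrix, TGF-beta or contractile gene passed (0 by edgeR; over all genes 726 and 309 had an unadjusted p under 0.05). The counts were small and moved with each tissue: leaving out 1 of the 7 tissues gave 2 to 42 genes in all, 42 without NEJ634, 14 without NEJ146, 7 without NEJ723, 5 without NEJ687, 2 without NEJ638 and 3 without NEJ654 or NEJ677, and without TMM there were 9. All 4 tumours were of ABC-Myc mice, and genotype, tumour growth and handling cannot be told apart in this comparison.

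Rgs5 stood at 29.2 against 23.3 CPM, 29.8 against 25.3 and 33.3 against 23.8 in collagen-rich and collagen-poor spots of NEJ638, NEJ654 and NEJ677. In the tumours the collagen-rich level was alike, 22.4 to 31.5 CPM, and the collagen-poor level was 10.3 to 12.3 CPM. The difference in log2 fold change was 0.86 ± 0.12 (SE, 4 tumours against 3 tissues; edgeR adjusted p = 0.039), and it was called in 1 of the 7 fits that leave out a tissue, the one without NEJ634. Vnn1, pantetheinase of hepatocytes, was similar on both sides of the 3 tissues, at 38.4 against 44.7, 45.1 against 45.5 and 50.2 against 46.1 CPM. In the tumours it was lower altogether and stood at 19.1, 18.7, 6.5 and 5.51 CPM in collagen-rich spots against 5.45, 4.25, 3.43 and 2.66 CPM, and its difference was 1.65 ± 0.20 larger (adjusted p = 0.018). Cldn2, a claudin of the paracellular pore, and Socs2 and Fzd8 showed the same form, with differences 1.02, 0.98 and 1.23 larger in the tumours (adjusted p = 0.039 for each). Without NEJ146, NEJ638, NEJ654 or NEJ677 none of these 5 genes was called. Vnn1 was called in the other 3 fits, Cldn2 and Socs2 in 1 of them and Fzd8 in 0, with differences that stayed between 0.70 and 1.72 over the 5 genes and 7 fits.

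Gsn, gelsolin, which severs actin filaments, went the opposite way. In NEJ638, NEJ654 and NEJ677 it stood at 188, 187 and 189.8 CPM in collagen-rich spots against 19.7, 19.8 and 9.94 CPM in collagen-poor spots. In the tumours it was abundant on both sides, 1094, 968, 718 and 1948 CPM against 1508, 1334, 882 and 2269 CPM, and lower on the collagen-rich side of each (log2 fold change -0.52 ± 0.10, adjusted p = 0.03; 0.171, 0.0997 and 0.0510 without NEJ146, NEJ634 and NEJ723). The difference between tumours and the other tissues was -3.92 ± 0.25 (adjusted p = 0.00044). Prr15l, Scd2, Palm and Phgdh were likewise low in collagen-poor spots of the 3 tissues and higher in their collagen-rich spots, while both sides of the tumours carried much more. Scd2, a stearoyl-CoA desaturase, stood at 24.5 against 9.16, 14.0 against 5.02 and 9.63 against 3.90 CPM in the 3 tissues and at 439, 977, 533 and 730.1 CPM against 509, 881, 595 and 811 CPM in the tumours. The 4 differences were -2.97, -1.5, -1.96 and -1.84 (adjusted p = 0.00098, 0.0011, 0.018 and 0.049). Gsn and Prr15l were called in all 7 fits without a tissue, Scd2 in 6 (not without NEJ638), Palm in 4 (not without NEJ638, NEJ654 or NEJ677) and Phgdh in 1 (without NEJ634).

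**Figure D5:**
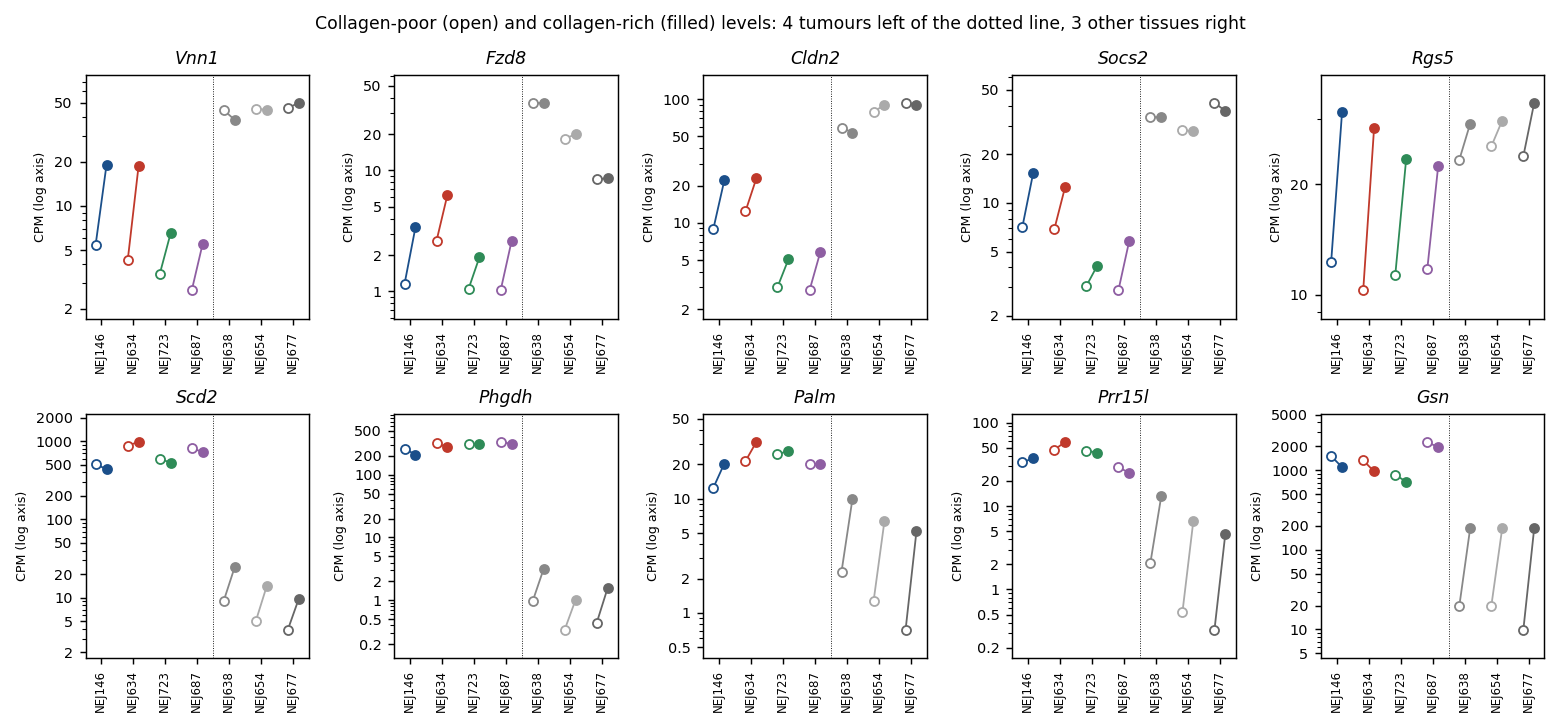
Levels of the 10 named interaction genes in collagen-poor (open) and collagen-rich spots (filled), in CPM on a log axis, for the 4 tumours left of the dotted line and the 3 other tissues right of it. For Vnn1, Fzd8, Cldn2, Socs2 and Rgs5 the collagen-poor spots of the tumours are well below their collagen-rich spots and the sides of the other tissues are closer together; for Gsn, Prr15l, Palm, Phgdh and Scd2 the tumours are high on both sides and the other tissues are lower on both, most of all in collagen-poor spots.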

How the data were processed

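RNA of 10 liver sections was captured on Visium arrays. The deposited files hold raw counts, whole UMIs per gene and spot, which the authors made with Cell Ranger 6.0 (NEJ146) or Space Ranger 1.3 (the other tissues, mm10) per the labels. The files of NEJ146 held no tissue calls. Scores, sides and sums were computed in Python 3.11.15. The NEJ146 sections were averaged and rounded, and the 3 rule genes were taken out of the table and its totals. CPM and list levels leave these genes out of the totals, while the score itself is per all UMIs. Sums held 4159894 to 12355433 UMIs per section on the collagen-rich and 21868491 to 59160257 on the collagen-poor side. edgeR 4.0.16 (robust quasi-likelihood, TMM, tumour as block, R 4.3.3) was the main test, with DESeq2 1.42.0 and limma 3.58.1 as alternatives. The interaction of side and tissue group was fitted over 7 tissues with the tissue as block. Differences by tumour are of log2(CPM + 1). P-values of edgeR rest on the spread between these 4 tumours, moderated by the trend over all genes. Each SE is the log2 fold change divided by the root of the test statistic. The members, the 31 lists (449 genes, 3 not matched) and the tests were chosen with earlier results of these data known. Named outside the lists were the 10 called genes with the largest fold change each way, among those with a mean of at least 10 CPM and 1 direction in each tumour and NEJ146 section, and the 5 largest interactions each way at that level. The genes drawn were picked from the lists after their values were seen. Predicted and mitochondrial genes were counted but not named. The test was also tried on counts simulated with the means and the spread fitted to these data. Coordinates are from GENCODE for GRCm38.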

Additional observations from a re-analysis of the deposited data

Results flagged for a closer look

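For the genes given with values, the difference between collagen-rich and collagen-poor spots was checked for a sample far from the others, over the 4 tumours and over the 4 NEJ146 sections. Of 168 checks on 84 genes 5 stood out, and chance alone flags about 1 in 20 groups. Col14a1 differed by 1.585 on the log2 scale in NEJ146 and by 1.284 to 1.307 in the other tumours. Within NEJ146, Ltbp2 differed by 3.842 in section A against 3.398 to 3.467, Pdgfrb by 2.32 in section D against 1.996 to 2.028, Fzd8 by 1.761 in section D against 0.7005 to 0.7718, and Prr15l by 0.09181 in section B against 0.161 to 0.1739.

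The difference between sides was not the same in the 4 tumours and the other 3 tissues for 10 named genes, by the interaction test of edgeR. The tumours had the larger log2 difference for Vnn1 (1.646), Fzd8 (1.229), Cldn2 (1.021), Socs2 (0.9772) and Rgs5 (0.8613). They had the smaller or opposite one for Gsn (-3.921), Prr15l (-2.972), Palm (-1.956), Phgdh (-1.844) and Scd2 (-1.498). The part of tissue handling in these differences was not tested.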

How the results depend on the processing

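The 644 higher genes became 994 with DESeq2, 971 without TMM, 1104 and 234 with a minimum mean of 0.2 and 10 CPM, 937 and 378 with the highest 5% and 20% of spots as the collagen-rich side, 919 against all other spots, and 163 to 730 with a tumour or NEJ146 section left out. Of the 644, DESeq2 shared 640 and the fit without TMM 644. The 126 lower genes became 434 with DESeq2, 31 without TMM, 265 and 11 with a minimum of 0.2 and 10 CPM, 199 and 17 with the highest 5% and 20%, 168 against all other spots, 74 without mitochondrial and globin genes, 19 with limma, and 1 to 132 with a tumour or section left out. Without the tumour as a block, which pairs both sides of 1 tissue, 1 gene was higher and 0 were lower by edgeR (836 and 180 at an unadjusted p under 0.05). The 19 interaction genes became 9 without TMM, 27 within classes of equal UMIs, and 2 to 42 with a tissue left out.

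No gene with a called fold change that is named here, and none of the 10 named interactions, changed direction under the alternatives run. Genes without a call were checked for a change of sign without TMM only, where Afp, P4hb, Ppib and Smad4 changed sign. The medians of the sinusoidal and proliferation lists also changed sign without TMM. Over the alternatives, 2950 fold changes of named called genes stayed on their side of the threshold and 456 lost their call, 307 of them with the block in place, as against 47 and 43 for the named interactions. Genes near the minimum level rest on few UMIs, and 4 tumours limit how small a difference can be called. The cause of these changes was not tested.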
